A study of Mus musculus with 27 samples.

Results

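The cholesterol-synthesis enzymes that make lanosterol and carry it on to cholesterol were followed here through 9 genes, Lss, Cyp51, Tm7sf2, Msmo1, Nsdhl, Hsd17b7, Ebp, Sc5d and Dhcr7, of the 19938 genes measured. Each was represented by the probe set annotated to its symbol alone, and each of the 9 had 1 such probe set among the 35557 on the array. The measurements came from TAMH cells, a hepatocyte line from mice carrying a transforming growth factor alpha transgene, kept in serum-free medium with dexamethasone, nicotinamide, insulin, transferrin and selenium. Cultures received APAP (acetaminophen) at 2 mM, AMAP, the isomer of APAP whose ring hydroxyl sits in the meta instead of the para position, also at 2 mM, or medium alone as control, for 2, 6 or 24 h. Each of the 9 groups of treatment and time held 3 arrays, titled P30, P31 and P32 and called numbers 30, 31 and 32 here. All groups therefore share 1 transgenic line and 1 medium. The labels give a range of cell passages and a pair of dishes per treatment, but do not say whether the 3 arrays of a group came from separate cultures, so the p-values measure the spread between arrays, which may be technical. Values are log2 signals, so a difference of 1 is a doubling, and levels are compared between arrays for 1 gene at a time. Levels are not set against each other between genes, apart from rough ranks of cell type markers.

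Cholesterol is built from acetate by way of mevalonate and squalene, and the first sterol of the route is lanosterol. Lanosterol then loses its methyl groups, has its double bonds moved or reduced, and ends as cholesterol, in a chain of reactions bound to the endoplasmic reticulum. The genes of the route are classical targets of SREBP-2, a transcription factor held in the endoplasmic reticulum by SCAP and INSIG proteins while sterols are plentiful, and released to the nucleus when they are scarce. Cells in serum-free medium have no lipoprotein cholesterol from serum to take up.

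SREBP acts at sterol regulatory elements, usually together with the CCAAT-binding factor NF-Y and with Sp1. The 250 bases before the RefSeq start site are shown for 3 of the genes. Nsdhl had the smallest p of the 9 in APAP cultures at 24 h, and Tm7sf2 was called higher where the others were lower. Msmo1 is shown as a gene with 3 CCAAT boxes in these bases, a number that Hsd17b7 has as well. Sequences are from RefSeq on GRCm38.p6, 5′ to 3′ along the gene's strand, and capitals mark CCAAT on that strand or, as ATTGG, on the opposite one. The windows are chrX:72918271-72918520 on the plus strand, chr8:64733579-64733828 on the minus strand and chr19:6067851-6068100 on the minus strand.
Nsdhl: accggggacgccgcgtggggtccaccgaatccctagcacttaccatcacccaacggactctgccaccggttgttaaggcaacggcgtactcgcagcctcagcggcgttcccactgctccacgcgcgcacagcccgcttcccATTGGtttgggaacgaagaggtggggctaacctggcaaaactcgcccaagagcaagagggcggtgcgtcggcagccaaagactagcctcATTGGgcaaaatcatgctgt
Msmo1: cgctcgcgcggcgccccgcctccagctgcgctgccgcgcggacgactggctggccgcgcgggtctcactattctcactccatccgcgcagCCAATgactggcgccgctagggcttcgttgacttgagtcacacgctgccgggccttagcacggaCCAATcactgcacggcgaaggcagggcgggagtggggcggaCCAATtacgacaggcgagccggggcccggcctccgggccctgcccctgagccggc
Tm7sf2: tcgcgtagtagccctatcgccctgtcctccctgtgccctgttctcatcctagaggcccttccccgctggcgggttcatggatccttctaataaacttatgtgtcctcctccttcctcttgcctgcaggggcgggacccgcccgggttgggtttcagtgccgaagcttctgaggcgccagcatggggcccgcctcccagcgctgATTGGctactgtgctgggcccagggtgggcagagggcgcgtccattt

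All 9 genes had an entry in the RefSeq promoter table, whose windows run 300 bases, from 250 before to 50 after a start site. The entries of Lss and Hsd17b7 do not lie at the outermost start of the gene, and Dhcr7 had 3 entries. The motifs were searched on both strands. CCAAT, the NF-Y box, occurred in at least 1 window of all 9 genes, against 37.4% of all 32851 windows in the table. For Dhcr7 it occurred in a window that starts within the gene and not in that at its outermost start. GGGCGG, an Sp1 box, also occurred in at least 1 window of all 9 genes, against 35.7% of all windows. TCACNCCAC, a strict spelling of the sterol regulatory element, occurred in no window of the 9 genes and in 1.24% of all windows. The motifs share no overlapping letters at the sites found, and a match or its absence in these letters is a description of the window only.

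For the 9 genes, differences between treatments passed the test at 24 h only. The APAP cultures at 24 h were the lowest of the 9 groups for 8 of the 9 genes, the exception being Tm7sf2. The share of all genes with that group lowest was not counted. The AMAP cultures at 24 h had a higher mean than the controls of that time for 8 of the 9, against 46.5% of all genes. In the plot of log2 signals by array, the 3 APAP arrays at 24 h sit below the 3 control arrays for 7 genes.

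**Figure D1:**
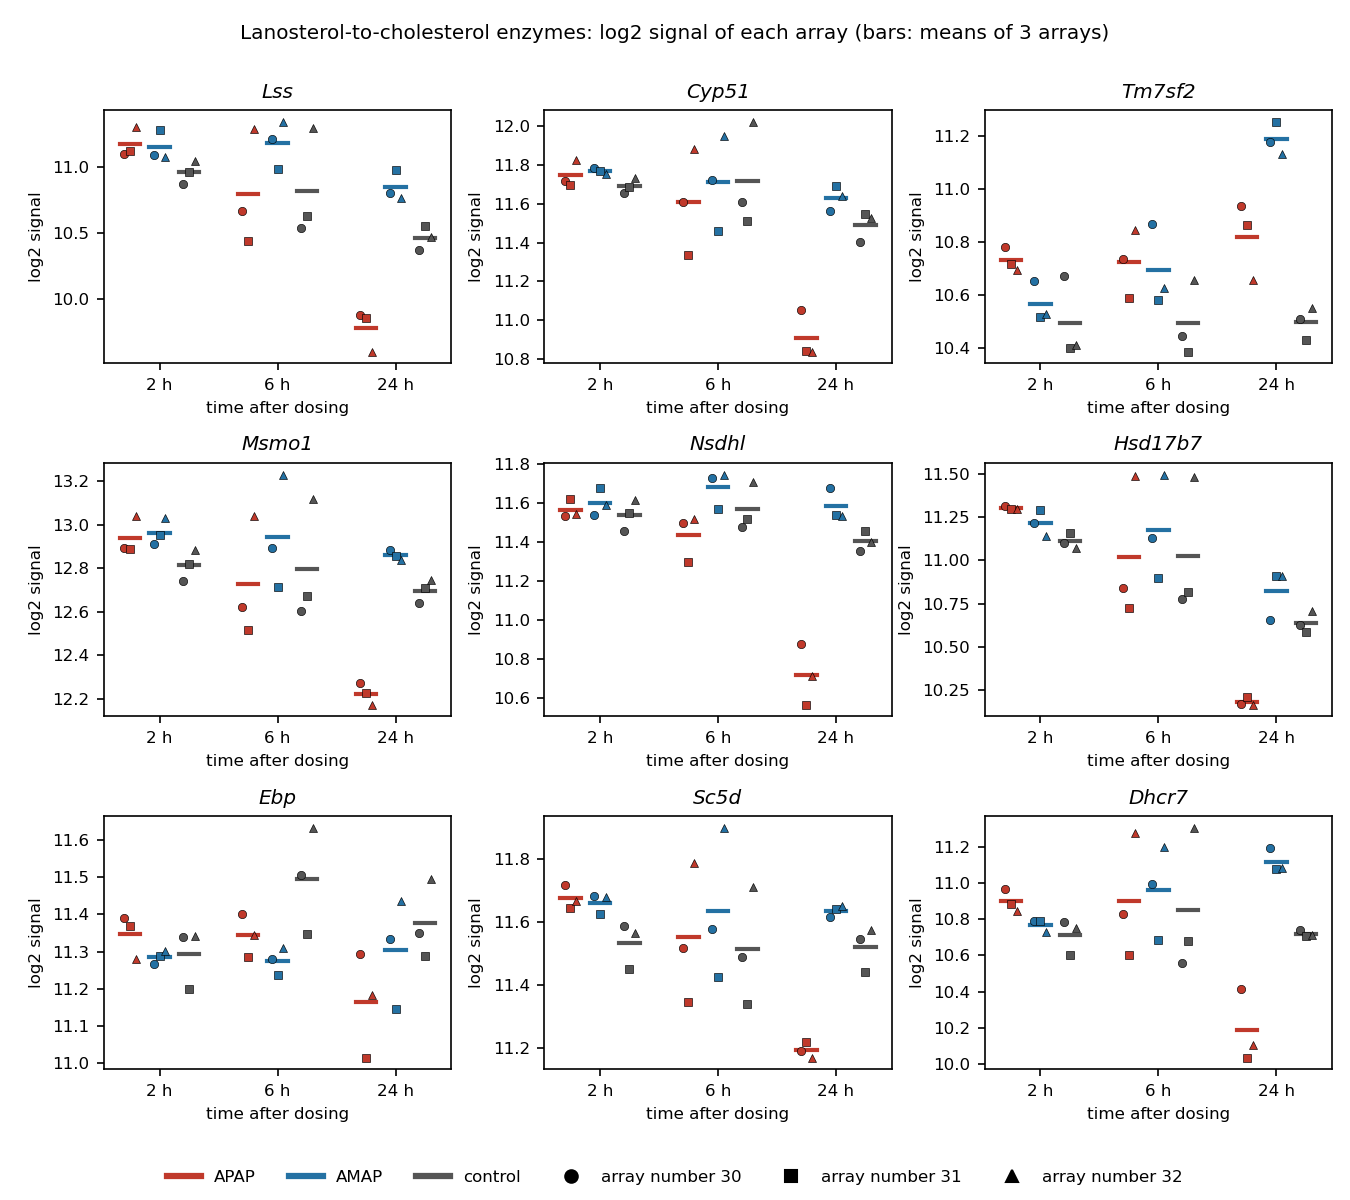
Log2 signal (vertical axis) of each of the 9 enzymes on each of the 27 arrays, with time after dosing on the horizontal axis and APAP, AMAP and control from left to right within a time. Points are arrays, with a marker for each array number, and bars are means of 3 arrays. The APAP points at 24 h are the lowest cluster in every panel but that of Tm7sf2, where AMAP at 24 h is highest and that of Ebp, where the 3 treatments overlap.

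With APAP at 24 h, 6 of the 9 genes fell against control, 1 rose and 2 did not pass the test. Across all genes 9.33% were called in this comparison, 5.97% lower and 3.36% higher. The median difference of the 9 genes was -0.47, against 0.02 over all genes. In 7 of them all 3 APAP arrays lay below all 3 control arrays, an arrangement found in 13.7% of all genes. In RNA from whole cultures, fewer cells of a kind and less RNA per cell cannot be told apart.

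The first of the enzymes, lanosterol synthase (Lss, probe set 10364194, GRCm38.p6 chromosome 10, 76531565 to 76557139), closes the squalene chain into lanosterol. At 24 h its log2 signal on arrays 30, 31 and 32 was 9.88, 9.86 and 9.60 in APAP cultures, 10.80, 10.98 and 10.76 in AMAP cultures, and 10.37, 10.55 and 10.47 in control cultures. The 3 treatments did not overlap, with APAP lowest and AMAP highest. Lss fell by 0.69 ± 0.17 (SE) with APAP against control, 1.61-fold lower with an adjusted p of 0.00929, and by 1.07 ± 0.17 with APAP against AMAP, 2.10-fold lower with an adjusted p of 0.000186. It was the only one of the 9 to differ by more than 2-fold in any comparison between treatments. The AMAP difference to control was 0.38 ± 0.17 with an adjusted p of 0.372. The APAP call against control was lost when all arrays numbered 30 or all numbered 31 were left out (adjusted p = 0.0838 and 0.101).

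Cyp51 (probe set 10527920, chromosome 5, 4080674 to 4104697) encodes the sterol demethylase that removes the first methyl group of lanosterol. Its signal at 24 h was 11.05, 10.84 and 10.84 in APAP cultures, 11.56, 11.69 and 11.64 in AMAP cultures, and 11.40, 11.55 and 11.53 in control cultures. All 3 AMAP arrays lay above all 3 control arrays, and the APAP arrays lay below both. Cyp51 fell by 0.58 ± 0.12 with APAP against control (1.50-fold lower, adjusted p = 0.00337) and by 0.72 ± 0.12 against AMAP (adjusted p = 0.000632), while AMAP against control gave 0.14 ± 0.12 (adjusted p = 0.745). The APAP call against control was lost when all arrays numbered 31 were left out (adjusted p = 0.0528).

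Msmo1, the methyl sterol oxidase, and Nsdhl, the sterol dehydrogenase and decarboxylase, act with Hsd17b7, the keto-sterol reductase, as a complex that strips the remaining pair of methyl groups. Msmo1 (probe set 10578916, chromosome 8, 64718123 to 64733578) stood at 12.27, 12.23 and 12.17 in APAP cultures at 24 h, 12.88, 12.86 and 12.84 in AMAP cultures, and 12.64, 12.71 and 12.75 in control cultures. It fell by 0.47 ± 0.12 with APAP against control (adjusted p = 0.0159) and by 0.64 ± 0.12 against AMAP (adjusted p = 0.00253). The 3 treatments did not overlap, and APAP was lowest. The call against control was lost without control array 31 or 32 (adjusted p = 0.0558 and 0.0606) and after quantile normalization (adjusted p = 0.0584). It was also lost without all arrays numbered 30 or all numbered 31 (adjusted p = 0.133 and 0.155). The call against AMAP was lost in the same 2 cases (adjusted p = 0.0985 and 0.0573).

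Nsdhl (probe set 10600082, X chromosome, 72918521 to 72958528), whose promoter is shown above, stood at 10.88, 10.57 and 10.71 in APAP cultures, 11.68, 11.54 and 11.53 in AMAP cultures, and 11.35, 11.46 and 11.40 in control cultures. It fell by 0.68 ± 0.09 with APAP against control, 1.61-fold lower with an adjusted p of 1.07e-05, and by 0.86 ± 0.09 against AMAP, 1.82-fold lower with an adjusted p of 3.48e-07. Its call against control was kept in every setting tried other than a 2-fold minimum. No other of the 6 fallen genes kept it in all of them. The AMAP arrays lay above the control arrays by 0.18 ± 0.09, which did not pass the test (adjusted p = 0.436).

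Hsd17b7 (probe set 10359917, chromosome 1, 169949535 to 169969242) stood at 10.17, 10.21 and 10.17 in APAP cultures at 24 h, 10.66, 10.91 and 10.91 in AMAP cultures, and 10.63, 10.58 and 10.71 in control cultures. The APAP arrays lay below all others and agreed closely, but the difference to control of -0.46 ± 0.16 missed the threshold (adjusted p = 0.0782), with the spread taken over all 27 arrays. Against AMAP it fell by 0.64 ± 0.16 (adjusted p = 0.0200), a call lost without APAP array 30 or 32 or AMAP array 31 or 32, where adjusted p was between 0.057 and 0.0799. The call against AMAP was also lost without all arrays numbered 30 or all numbered 31 (adjusted p = 0.171 and 0.167). The spread of Hsd17b7 within groups was far wider at 6 h than at 24 h, with pooled SDs of 0.37 and 0.09, and in a model of the 9 arrays at 24 h alone its difference to control passed the test (adjusted p = 0.00936). Over all alternatives the adjusted p of that difference ran from 0.00769 to 0.333.

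Tm7sf2 (probe set 10465342, chromosome 19, 6062821 to 6067850) encodes a sterol reductase that acts after the demethylation by Cyp51, an activity it shares with the lamin B receptor, Lbr. It went the other way. Its signal at 24 h was 10.94, 10.87 and 10.66 in APAP cultures, 11.18, 11.26 and 11.13 in AMAP cultures, and 10.51, 10.43 and 10.55 in control cultures. The 3 treatments did not overlap, and here control was lowest. Tm7sf2 rose by 0.32 ± 0.10 with APAP (1.25-fold, adjusted p = 0.0311) and by 0.69 ± 0.10 with AMAP (1.62-fold, adjusted p = 0.000811), and it was lower by 0.37 ± 0.10 with APAP than with AMAP (adjusted p = 0.0226). Its call with APAP was lost without any 1 control array of the time or without APAP array 30 or 31, with adjusted p over all alternatives between 0.00217 and 0.308. The call against AMAP was lost without APAP array 32 or AMAP array 30 or 31 (adjusted p = 0.134, 0.0668 and 0.0848). That call was also lost without all arrays numbered 30, 31 or 32 (adjusted p = 0.112, 0.177 and 0.163). Lbr differed by -0.18 ± 0.11 with APAP and by 0.10 ± 0.11 with AMAP against control at 24 h (adjusted p = 0.392 and 0.821).

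Ebp (probe set 10603485, X chromosome, 8185329 to 8193512), the sterol isomerase, was the one gene whose APAP arrays overlapped those of both other treatments. It stood at 11.29, 11.02 and 11.18 in APAP cultures, 11.33, 11.15 and 11.44 in AMAP cultures, and 11.35, 11.29 and 11.49 in control cultures. The differences at 24 h were -0.21 ± 0.09 for APAP against control (adjusted p = 0.127), -0.07 ± 0.09 for AMAP against control (adjusted p = 0.831) and -0.14 ± 0.09 for APAP against AMAP, with a 95% interval from -0.32 to 0.04 (adjusted p = 0.390).

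Sc5d (probe set 10592585, chromosome 9, 42251592 to 42264300), the desaturase of lathosterol, stood at 11.19, 11.22 and 11.17 in APAP cultures at 24 h, 11.62, 11.64 and 11.65 in AMAP cultures, and 11.55, 11.44 and 11.57 in control cultures. It fell by 0.33 ± 0.10 with APAP against control, just past the threshold (adjusted p = 0.0483), and by 0.44 ± 0.10 against AMAP (adjusted p = 0.0124). The call against control was lost without any 1 of the 6 arrays compared, where adjusted p was between 0.0711 and 0.145. Without all arrays numbered 30 its adjusted p was 0.357. The call against AMAP was lost without all arrays numbered 30 or all numbered 31 (adjusted p = 0.244 and 0.0577).

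Dhcr7 (probe set 10559312, chromosome 7, 143823167 to 143848410) encodes the reductase of the last step in one branch, which turns dehydrocholesterol into cholesterol. It stood at 10.41, 10.04 and 10.11 in APAP cultures at 24 h, 11.19, 11.07 and 11.08 in AMAP cultures, and 10.74, 10.70 and 10.71 in control cultures. It fell by 0.53 ± 0.15 with APAP against control (adjusted p = 0.0282), a call lost without APAP array 31 or 32 or any 1 control array, and by 0.93 ± 0.15 against AMAP (1.91-fold lower, adjusted p = 0.00043). The call against control was also lost without all arrays numbered 30 or all numbered 31 (adjusted p = 0.118 and 0.234). The AMAP arrays lay 0.40 ± 0.15 above the control arrays without passing the test (adjusted p = 0.292), and AMAP at 24 h was the highest of the 9 groups.

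**Figure D2:**
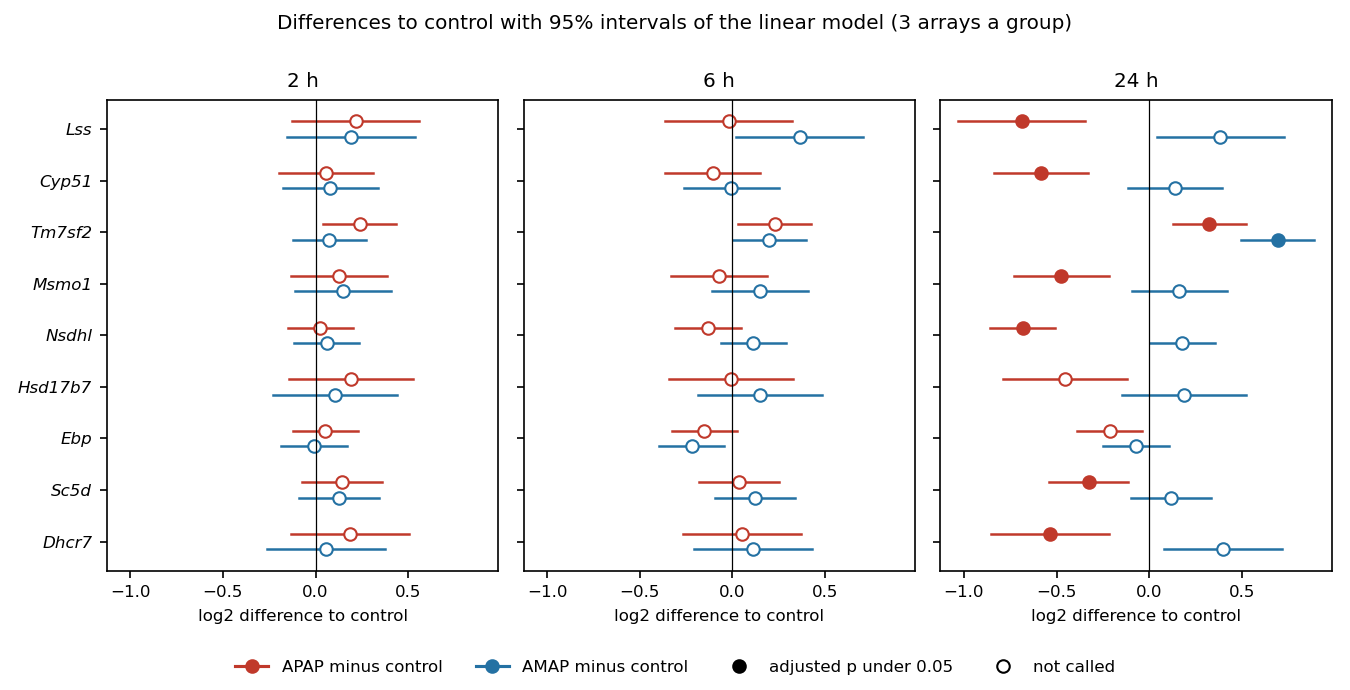
Log2 difference to control (horizontal axis) of the 9 enzymes at 2, 6 and 24 h, with APAP minus control above AMAP minus control in each row. Points are differences of means of 3 arrays, bars are 95% intervals of the linear model, and filled points passed an adjusted p of 0.05. Filled points occur at 24 h only, 7 for APAP, of which 6 are negative, and 1 for AMAP, at Tm7sf2.

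AMAP at 24 h changed 1 of the 9 genes, Tm7sf2, which rose. Over all genes 0.727% were called in this comparison, 0.311% higher. The other differences were positive but for Ebp, with a median over the 9 genes of 0.18 against -0.01 over all genes. All 3 AMAP arrays lay above all 3 control arrays for 7 of the 9 genes, an arrangement found in 8.71% of all genes. The comparisons of APAP and of AMAP with control use the same 3 control arrays, so the 2 sets of differences are not independent.

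The isomers were set against each other at the same dose at 3 times, which gave 27 tests on the 9 genes, each adjusted over all genes of its comparison. At 24 h 8 of the 9 genes were lower with APAP than with AMAP, and in these 8 all 3 APAP arrays lay below all 3 AMAP arrays. Of all genes tested 4.65% were called here, 2.78% in the lower direction, and 10.1% had all 3 APAP arrays below the AMAP arrays. The median difference was -0.64, against 0.02 over all genes, and the fold differences of the 8 ran from 1.29 for Tm7sf2 to 2.10 for Lss. Ebp did not pass the test. At 2 h none of the 9 genes was called, and over all genes 0.261% were. The differences ran from -0.04 to 0.16, with 95% intervals that lay between -0.32 and 0.45, so differences of the size seen for Lss or Dhcr7 at 24 h lie outside them. At 6 h none was called either, with 0.707% over all genes, and the differences ran from -0.38 for Lss to 0.07 for Ebp.

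At 2 h no difference to control passed the test for any of the 9 genes. Over all genes 0.682% were called with APAP and 0.181% with AMAP. With APAP all 9 differences were positive, from 0.02 for Nsdhl to 0.24 for Tm7sf2, with a median of 0.14 against 0.01 over all genes. In 6 genes (Lss, Tm7sf2, Msmo1, Hsd17b7, Sc5d and Dhcr7) all 3 APAP arrays lay above the control arrays, an arrangement found in 9.46% of all genes. Hsd17b7 stood at 11.32, 11.29 and 11.29 in APAP cultures at 2 h, 11.21, 11.29 and 11.14 in AMAP cultures, and 11.10, 11.16 and 11.07 in control cultures. Lss stood at 11.10, 11.12 and 11.30 in APAP cultures, 11.09, 11.28 and 11.08 in AMAP cultures, and 10.87, 10.96 and 11.04 in control cultures. Tm7sf2 stood at 10.78, 10.72 and 10.69 in APAP cultures, 10.65, 10.52 and 10.53 in AMAP cultures, and 10.67, 10.40 and 10.41 in control cultures, where control array 30 lay just below the APAP arrays and above the AMAP arrays. The APAP differences to control were 0.19 ± 0.16 for Hsd17b7, 0.22 ± 0.17 for Lss and 0.24 ± 0.10 for Tm7sf2 (adjusted p = 0.806, 0.778 and 0.398), with standard errors that pool the spread of all 27 arrays. With AMAP 8 of 9 differences were positive with a median of 0.08, and in 4 genes (Lss, Cyp51, Msmo1 and Sc5d) the arrays did not overlap and AMAP was higher, against 4.51% of all genes.

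At 6 h no difference to control passed the test, with 2.5% of all genes called for APAP and 0.456% for AMAP. The median over the 9 genes was -0.02 with APAP and 0.12 with AMAP. For most of the 9 genes the arrays at this time divided by their number. On the arrays numbered 32, Dhcr7 stood at 11.27 with APAP, 11.20 with AMAP and 11.31 in control, while arrays 30 and 31 stood at 10.83 and 10.60 with APAP, 10.99 and 10.68 with AMAP, and 10.56 and 10.68 in control. Hsd17b7 stood at 11.49, 11.50 and 11.48 on the number 32 arrays of APAP, AMAP and control cultures, while the other 6 arrays lay between 10.72 and 11.13. Msmo1 stood at 13.04, 13.23 and 13.12 on them, with the other 6 arrays between 12.52 and 12.89. The 3 genes without this order were Tm7sf2, Nsdhl and Ebp, of which Nsdhl had its highest array of each treatment at number 32, at 11.51 with APAP, 11.74 with AMAP and 11.71 in control. For 6 of the 9 genes (Lss, Cyp51, Msmo1, Hsd17b7, Sc5d and Dhcr7) all 3 arrays numbered 32 lay above all 6 others of the time, which held for 3.88% of all genes. The median over the 9 genes of number 32 minus the mean of 30 and 31 was 0.41 at 6 h, against 0.02 at 2 h and -0.01 at 24 h, where none of the 9 genes showed the pattern. Within array numbers, APAP lay below AMAP at 6 h in all 3 pairs for 6 of the 9 genes (Lss, Cyp51, Msmo1, Nsdhl, Hsd17b7 and Sc5d). None of the 9 was called with array number as a block. The share of all genes with this order was not counted, so the 6 are a description only. Over all genes 46.6% had a higher mean with APAP than with AMAP at 6 h. For Nsdhl the differences within numbers 30, 31 and 32 were -0.23, -0.27 and -0.23, and for Msmo1 -0.27, -0.19 and -0.19.

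**Figure D3:**
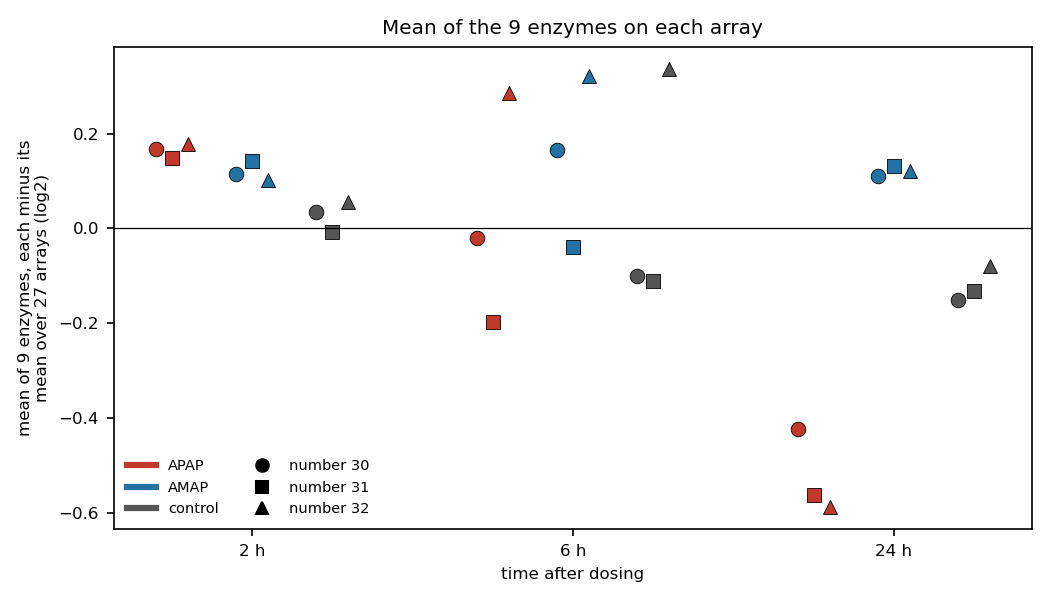
Mean of the 9 enzymes on each array, each gene first set to its mean over the 27 arrays (vertical axis, log2 units), by time after dosing, with APAP, AMAP and control from left to right. Points are single arrays, marked by array number. At 6 h the 3 arrays numbered 32 lie at 0.29, 0.32 and 0.34 for APAP, AMAP and control, above the other 6, and at 24 h the APAP arrays lie between -0.59 and -0.42.

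In other lists all number 32 arrays lay above the others at 6 h for 4 of 9 measured genes of the mevalonate route, 5 of 15 of fatty acid synthesis, 3 of 13 of SREBP control and uptake, 2 of 9 of sterol efflux, 1 of 9 of sterol use and 2 of 7 helpers of the late route, beside the 3.88% of all genes. Over all genes 6.42% had all number 32 arrays below the others at 6 h. Whether number 32 at 6 h differed in cell passage, culture, harvest or hybridisation is not given by the labels and was not tested. Tm7sf2 at 6 h was 10.74, 10.59 and 10.85 in APAP cultures, 10.87, 10.58 and 10.63 in AMAP cultures, and 10.44, 10.38 and 10.65 in control cultures, with differences to control of 0.23 ± 0.10 for APAP and 0.20 ± 0.10 for AMAP that did not pass the test (adjusted p = 0.286 and 0.522). Without the arrays numbered 32, still no gene of the 9 was called against control at 6 h. Lss was then lower with APAP than with AMAP at 6 h with a difference of -0.55 (adjusted p = 0.0397), against -0.38 and an adjusted p of 0.577 with all arrays.

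In control cultures no gene of the 9 was called between 2 and 6 h, between 6 and 24 h or between 2 and 24 h, where 0.707%, 0.015% and 1.14% of all genes were. The largest differences were those of Lss and Hsd17b7, which were -0.49 ± 0.17 and -0.47 ± 0.16 at 24 h relative to 2 h (adjusted p = 0.152 and 0.163). Lss stood at 10.37, 10.55 and 10.47 at 24 h, against 10.87, 10.96 and 11.04 at 2 h. In 4 of the 9 genes (Lss, Cyp51, Nsdhl and Hsd17b7) all control arrays at 24 h lay below those at 2 h, against 13.9% of all genes. Tm7sf2 was flat in control cultures, with means of 10.49, 10.49 and 10.50 at 2, 6 and 24 h (SD 0.16, 0.14 and 0.06, n = 3 each).

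The effect of APAP at 24 h was set against its effect at 2 h by an interaction term. Nsdhl passed, with an effect lower by 0.71 ± 0.12 at 24 h (adjusted p = 0.00475), where 0.356% of all genes were called. This call was lost without number 30, 31 or 32 (adjusted p = 0.105, 0.276 and 0.0855). With array number as a block 3 of the 9 passed, among them Cyp51 and Msmo1 (adjusted p = 0.0468 and 0.0467), where 187 of all 19938 genes were called. With only the groups compared in the model 6 passed, where 69 of all genes were called. The other fallen genes had interaction terms from -0.90 for Lss to -0.47 for Sc5d with adjusted p of 0.102 and above. Tm7sf2 had 0.09 ± 0.14 (adjusted p = 0.917). In 5 of the 9 genes all APAP arrays lay above the control arrays at 2 h and below them at 24 h, an arrangement found in 0.236% of all genes. Against 6 h none of the 9 passed and 0.01% of all genes did. For AMAP none of the 9 passed against 2 h or 6 h, and the limma fit called 0% of all genes in both, although 937 and 691 genes had an unadjusted p under 0.05. The largest AMAP term was that of Tm7sf2, 0.62 ± 0.14 against 2 h (adjusted p = 0.297).

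Ordered from high to low, the 9 group means ended in APAP at 24 h for every gene but Tm7sf2. The order was read from the same means and was not counted over all genes, so it is given as a description. For Lss, Nsdhl, Cyp51, Msmo1 and Hsd17b7 the group just above was control at 24 h, so the last step is the difference to control given above. For the others the group just above APAP at 24 h was control at 2 h for Dhcr7, 0.53 higher, control at 6 h for Sc5d, 0.32 higher, and AMAP at 6 h for Ebp, 0.11 higher. For Tm7sf2 the top 2 groups were AMAP at 24 h and APAP at 24 h, 0.37 apart. The 9 genes were alike in shape to different degrees. Over the 9 group means each was correlated with the mean of the other 8, with r of 0.89 to 0.98 for 7 genes, 0.44 for Ebp and -0.12 for Tm7sf2, values that the APAP group at 24 h weighs in heavily.

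The genes most like the mean of the 9, by r over the same 9 group means among 2650 genes with a range of at least 0.5, were Dennd11 (r = 0.99), Acly, the enzyme that makes cytosolic acetyl-CoA from citrate (0.96), Echdc1 (0.96), 0610010K14Rik (0.95), Pnpla3, a lipid droplet acyltransferase and lipase (0.95), Idh1, a source of cytosolic NADPH (0.95), Pecr (0.94) and Pmvk, the phosphomevalonate kinase of the upstream route (0.94). The 3 most like Tm7sf2 were Trpm4, an ion channel (0.96), Dgat2, which completes triglyceride synthesis (0.94), and Coq8a, of coenzyme Q synthesis (0.92). Trpm4 rose with AMAP at 24 h by 0.62 ± 0.14 (adjusted p = 0.0343), and with APAP its difference was 0.32 ± 0.14 (adjusted p = 0.173). Dgat2 and Coq8a did not pass the test with AMAP at 24 h. Their differences to control were 0.57 ± 0.20 and 0.48 ± 0.12 (adjusted p = 0.202 and 0.0590).

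Upstream of lanosterol, 8 of the 9 measured genes of the mevalonate route fell with APAP at 24 h against control, and the same number against AMAP, where 5.97% and 2.78% of all genes were called lower. Their median difference to control was -0.70. Fdps, which makes farnesyl diphosphate, fell by 0.74 ± 0.08, Fdft1, the squalene synthase, by 0.84 ± 0.12, Pmvk by 0.65 ± 0.10 and Idi1, the isomerase of the route, by 0.71 ± 0.12. Sqle, which makes the epoxide that Lss closes, fell by 0.70 ± 0.13. Ggps1, which leads to geranylgeranyl groups and off the sterol route, was the gene that did not pass. With AMAP none of the 9 was called against control at 24 h, with a median of 0.06.

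**Figure D4:**
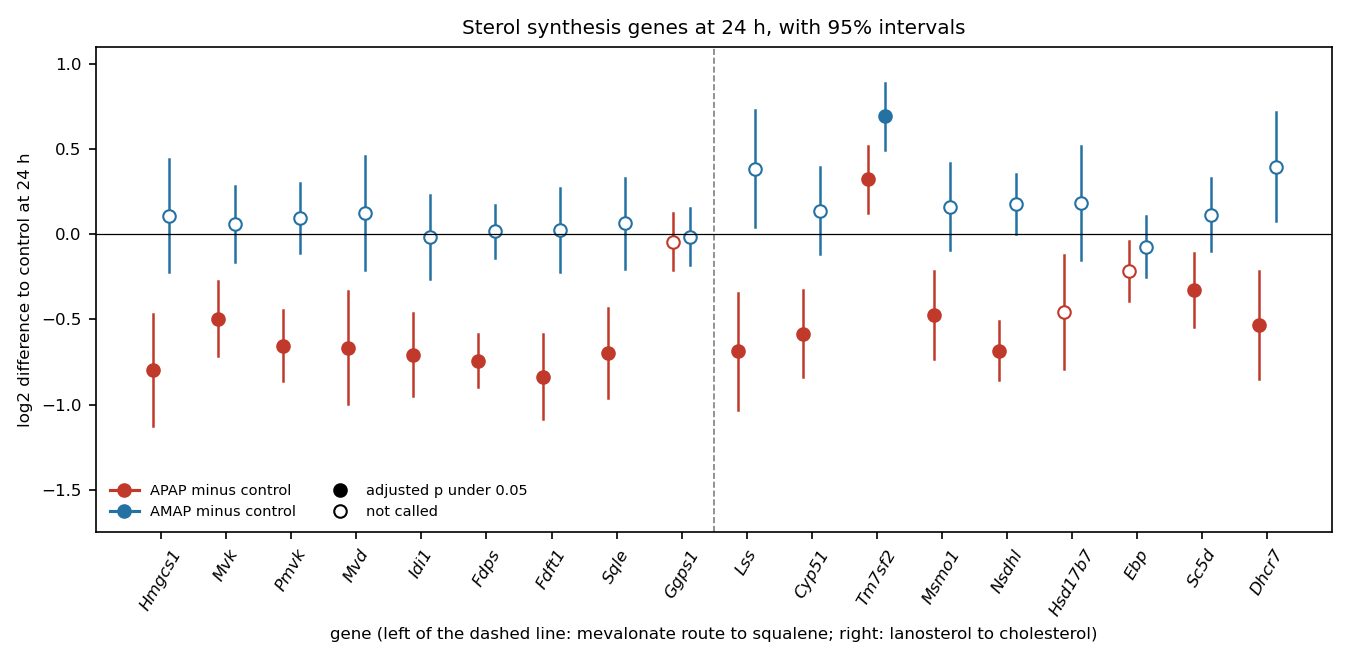
Log2 difference to control at 24 h (vertical axis) of the measured mevalonate route genes and the 9 lanosterol-to-cholesterol enzymes (horizontal axis, in order of the route apart from Ggps1, a side branch), with APAP left of AMAP for each gene. Points are differences of means of 3 arrays, bars are 95% intervals of the linear model, and filled points passed an adjusted p of 0.05. APAP points lie below 0 for every gene but Tm7sf2, which is the one filled point above 0 for both compounds.

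Of 13 measured genes of SREBP control and sterol uptake, 3 fell and 2 rose with APAP at 24 h against control, beside 5.97% and 3.36% of all genes. Srebf2, which encodes SREBP-2, fell by 0.62 ± 0.10 and Srebf1, which encodes SREBP-1, by 0.55 ± 0.08. Stard4, a carrier of cholesterol between membranes, fell by 0.69 ± 0.08, while Npc1, which exports cholesterol from lysosomes, rose by 0.47 ± 0.09 and Scap rose by 0.22 ± 0.07. Srebf2 was the one gene of these lists already lower with APAP at 6 h, by 0.40 ± 0.10 (adjusted p = 0.0202). Insig1, which retains SREBP in the endoplasmic reticulum, joined the fallen genes in APAP against AMAP at 24 h, at 0.78 ± 0.14 lower.

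Of 7 measured helpers of the late route, 2 fell with APAP at 24 h against control, beside 5.97% of all genes: Cyb5b, a cytochrome that passes electrons, by 0.37 ± 0.08, and Erg28, known from yeast as a scaffold of the demethylating complex, by 0.36 ± 0.09. Fatty acid synthesis, the arm driven mainly by SREBP-1c, fell in 9 of 15 genes, among them Elovl6 (-0.83 ± 0.13), Scd1 (-0.63 ± 0.11), Scd2 (-0.52 ± 0.09) and Fads1 (-0.44 ± 0.08), with a median of -0.34. In sterol efflux 1 of 9 genes was called, beside 9.33% of all genes: Abcg4, which rose by 0.25 ± 0.08. Of 9 genes that use cholesterol for bile acids, oxysterols and esters 1 was also called, Akr1d1, which fell by 0.58 ± 0.12. A single call in 9 genes is close to that share. Akr1d1 had a low signal, at the 27.2 percentile of all genes. With AMAP at 24 h its difference to control was -0.38 ± 0.12, which did not pass the test (adjusted p = 0.170). With AMAP at 24 h the calls over all these lists were 2, beside 0.727% of all genes: Acss2, which makes acetyl-CoA from acetate (0.86 ± 0.18), and Cyp27a1, a sterol hydroxylase (0.40 ± 0.09), both higher than control.

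Replicates of a group correlated at 0.992 to 0.997 over all genes and the array medians ran from 6.92 to 7.07. In control cultures, hepatocyte markers ranked high, with Alb at the 99.98 percentile of all genes and a median percentile of 94.9 for 12 markers, though signals of different probe sets are only roughly comparable. The median percentile was 23.4 for macrophage and leukocyte markers, with Cd14 high at 95.7 and Cd68 at 62.5, and 25.9 for endothelial markers. Biliary markers had a median percentile of 77.5, with Krt7 and Cd24a high, and fibroblast markers of 49.3, with Vim, Dcn and Fn1 high and Lum low. With APAP at 24 h against control, 1 of 12 hepatocyte, 0 of 9 macrophage, 0 of 8 endothelial, 1 of 10 fibroblast and 1 of 6 biliary markers were called, all lower, at an adjusted p from limma under 0.05, beside 9.33% of all genes. The mean of the 6 biliary markers ran from 8.26 to 8.61 on the APAP arrays at 24 h, from 8.18 to 8.67 on the AMAP arrays and from 8.78 to 8.92 on the control arrays, and all arrays of both treatments lay below all control arrays. Their median difference to control was -0.29 with APAP and -0.28 with AMAP. The mean of the 12 hepatocyte markers ran from 10.55 to 11.20 with APAP, from 10.75 to 11.05 with AMAP and from 10.57 to 10.88 in control, with median differences of 0.19 and 0.18. The medians with APAP were 0.08 for macrophage, 0.04 for endothelial and -0.03 for fibroblast markers. The part of these markers in the results was not tested.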

How the data were processed

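Total RNA of TAMH cells was hybridised to 27 Affymetrix Mouse Gene 1.0 ST arrays, per the labels' protocols. The deposited values are log2 signals made with RMA in Affymetrix Expression Console 1.1, per the submitters' processing notes, and were used as deposited. Of 35557 probe sets, 21789 carry 1 gene symbol, and the brightest per symbol gave 19938 genes. A model of 9 group means over all 27 arrays was fitted with limma 3.58.1 in R 4.3.3 (18 residual degrees of freedom, eBayes prior 7.30). Tests are two-sided, with Benjamini-Hochberg adjustment over all genes of a comparison, and a gene was called at an adjusted p under 0.05. The pipeline was tested on simulated data. The number of arrays per group limits the precision. The 9 genes, the gene lists and the tests were chosen with earlier results of these data known. By rule, from each list the genes with the smallest p at 24 h were named, together with Lbr, the 8 genes most like the mean of the 9 and the 3 most like Tm7sf2. Positions and promoters are from RefSeq on GRCm38.p6, and the authors' probe design build is not given in the sources used here. Array numbers were judged to pair arrays where, for each number, deviations from the group means correlated above 0.1 across genes. This held in 5 of 9 treatment comparisons, among them APAP against AMAP at 24 h but not APAP or AMAP against control at 24 h. The main fit made no use of the array numbers, also in those 5 comparisons. Blocking by number, other arrays in the model, scalings, variance priors, weights and leaving out arrays were tried as alternatives.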

Additional observations from a re-analysis of the deposited data

Results flagged for a closer look

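The effect of APAP on Nsdhl differed between 24 h and 2 h by -0.71 log2 units, the only one of the 9 interaction terms between these times to pass the limma test (adjusted p = 0.00475). Without number 30, 31 or 32 it did not pass (adjusted p = 0.105, 0.276 and 0.0855). With array number as a block 3 of the 9 passed, with only the groups compared 6 and with array weights 5. These fits called 187, 69 and 297 of all 19938 genes. For 5 more genes every APAP array lay above every control array at 2 h and below every one at 24 h, which held for 0.236% of all genes. The interaction terms of these were -0.90 for Lss, -0.60 for Msmo1, -0.65 for Hsd17b7, -0.47 for Sc5d and -0.72 for Dhcr7, and none passed the limma test over all 27 arrays (adjusted p = 0.102, 0.164, 0.292, 0.204 and 0.181), nor did any of the differences to control at 2 h, so a turn of direction was not shown. With only the groups compared, Lss, Hsd17b7, Msmo1, Cyp51 and Dhcr7 also passed (adjusted p = 0.00617, 0.00574, 0.0199, 0.0215 and 0.0286).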

How the results depend on the processing

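Over 43 settings 3258 values of single genes were recomputed. None changed direction where called, 3157 kept their side of the threshold, 76 lost the call and 25 gained it. Most of the 3258 were not called in the main fit, so the 3157 do not measure how stable the calls were. For APAP against control at 24 h, the Sc5d call was kept in 10 of 22 settings, Tm7sf2 in 11, Dhcr7 in 12, Msmo1 in 16, Lss in 19, Cyp51 in 20 and Nsdhl in 21. Of the 7 genes called with APAP against control at 24 h, 4 remained as a count after quantile normalization, 4 when all probe sets were tested, and 0 at a 2-fold minimum. Those settings called 1828 genes, 1903 probe sets and 37 genes, against 1860 genes in the main fit. Without 1 array number 1 to 7 were called, and without 1 array 3 to 5. Of 8 genes lower with APAP than with AMAP at 24 h, 1 passed a 2-fold minimum, as did 41 of all genes, and 4 to 7 passed without 1 array number. For AMAP against control at 24 h the single call became 0 at a 2-fold minimum and 0 to 1 without 1 array number, being lost without number 31. The single interaction call of APAP between 24 h and 2 h became 6 with only the groups compared and 5 with array weights, where 69 and 297 of all genes were called. It became 0 at a 2-fold minimum and 0 to 0 without 1 array number. For control cultures at 24 h against 2 h, where none was called, 2 were with only the groups compared, 2 with array weights and 0 to 1 without 1 array number. Over all genes 123 were called with only the groups compared and 894 with array weights. For APAP against AMAP at 6 h, where none was called, 0 to 1 were without 1 array number, Lss without number 32, where 77 of all genes were called. With the replicate block, calls for APAP against control at 24 h numbered 8, adding Hsd17b7 (adjusted p = 0.0411), and the interaction of APAP between 24 h and 2 h gave 3, while the paired fit left the counts of the other 14 comparisons as they were. For 23 of the 27 arrays, deviations from the group mean correlated on average more with same-numbered arrays of other groups than with those of either other number. The causes of these changes were not tested. With 3 arrays a group, the median standard error of a difference was 0.099, and no depth or detection limit is known for these values.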
